A study of Mus musculus with 2 samples.

Results

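Non-cycling satellite cells are described here as nuclei selected on their own counts of unique molecular identifiers (UMIs, each of which marks 1 captured RNA molecule). A nucleus had to hold at least 2000 UMIs with at most 5% from mitochondrial genes, at least 1 UMI of Pax7, and at least 4 UMIs of Pax7, Fgfr4, Megf10 and Col19a1 together. It could hold at most 1 UMI of the cycle genes Top2a, Mki67, Kif11, Knl1 and Kif15, at most 1 UMI of Ptprc and Pdgfra, which mark leukocytes and fibroblasts, and under 1% of its UMIs from the fibre genes Ttn, Neb, Trdn and Dmd. This rule took 1618 of the 23616 nuclei that passed the first 2 limits, 1373 of 16986 for AHRfl/fl and 245 of 6630 for AHRmKO, with 1 library each. The levels of these genes are set by the selection and are given below only as a description.

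Satellite cells are the stem cells of skeletal muscle, and they lie between a fibre and its basal lamina. The transcription factor Pax7 marks them, and Notch receptors on their surface, activated by ligands on neighbouring cells, act through Rbpj to switch on Hes and Hey genes that hold them out of the cell cycle and out of differentiation. After injury they enter the cell cycle and switch on Myod1, and their progeny either return to rest or switch on Myog, become myocytes and fuse into fibres.

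Nuclei were taken from the tibialis anterior of male mice, 16 to 20 weeks old, that had chronic kidney disease and whose femoral artery had been ligated 5 days earlier. The disease and the operation were common to both groups. For both, the strain label names AHRtm3.1Bra/J, which is a floxed Ahr allele, and the transgene Tg(ACTA1-cre/Esr1*)2Kesr/J, so the groups are told apart as AHRfl/fl and AHRmKO by other labels. Ahr encodes the aryl hydrocarbon receptor, which turns on genes when it binds small ligands, and the comparison asks what this receptor in muscle does in the ischaemic limb. The ACTA1 promoter that drives this Cre is active in differentiated fibres, so satellite cells are not themselves the cells the deletion aims at. This Cre is fused to a modified oestrogen receptor and acts after an inducer, whose use is not given in the sources used here. How many mice each library pools is not given in the sources used here.

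Each group has 1 library, so no difference has a replicate check, the groups cannot be tested against each other, and p-values are not given. Nuclei of 1 library share their source and are not replicates of a genotype. Levels (CPM) are the UMIs of a gene summed over a class of nuclei and scaled to a total of 1000000, and intervals in brackets are exact at 95% and cover counting error only. The 1373 nuclei held 5297611 UMIs with a median of 3560 a nucleus, and the 245 held 1133225 with a median of 3683, so the library labelled AHRmKO gave the wider intervals. A count of 0 allows up to 3 UMIs, or 0.566 CPM in the first library and 2.65 CPM in the second. The median mitochondrial share of the selected nuclei was 1.14% and 2.30%. No selected barcode occurred in both libraries. In pairs of values, AHRfl/fl comes first and AHRmKO second.

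Non-cycling satellite cells made up 8.08% (7.68 to 8.50) of quality-passing nuclei in the AHRfl/fl library and 3.70% (3.25 to 4.18) in the AHRmKO library. Nearly all of this difference arose at the last step of the rule. Nuclei with Pax7 numbered 4244 and 1847, of which 3472 and 1398 also held 4 UMIs of the marker genes, 2137 and 675 then passed the cycle limit, and 1719 and 624 passed the limit on Ptprc and Pdgfra. Those last numbers are 10.1% and 9.41% of quality-passing nuclei. The fibre limit then left out 346 and 379 nuclei.

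**Figure D1:**
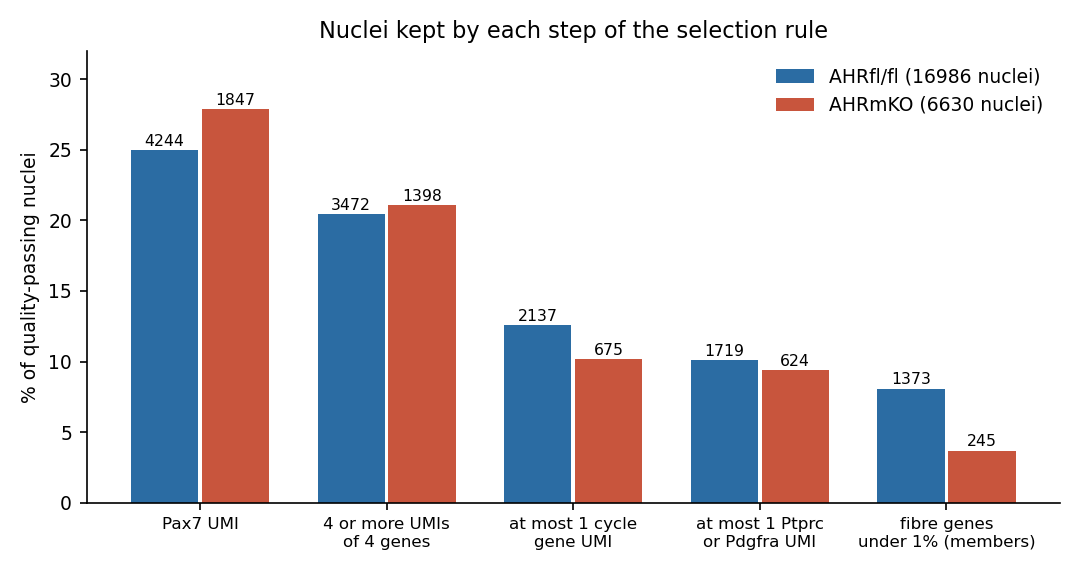
Nuclei that passed each successive step of the selection rule, as a percentage of the quality-passing nuclei of each library, with the number of nuclei above each bar. The bars of both libraries are of similar height until the fibre limit, which left 1373 AHRfl/fl and 245 AHRmKO nuclei.

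The Pax7 nuclei left out only by the fibre limit held Pax7 at 297.5 and 583.5 CPM, below the 1066 and 1302 CPM of the selected nuclei. Notch3, which the rule did not use, stood at 231.7 and 333.8 CPM in them and at 1020 and 974.2 CPM in the selected nuclei. Ttn, the giant spring protein of the sarcomere, stood at 14830 and 28710 CPM in the nuclei left out. The AHRmKO library also held more Ttn in other myogenic classes, at 2423 and 3705 CPM in cycling Pax7 nuclei and 15860 and 39080 CPM in myocytes, and its part in the difference between the shares was not tested. With the limit at 3%, set after the data had been seen, the shares were 9.37% and 7.03%.

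Many nuclei lay close to the edges of the rule. Of the selected nuclei, 89 and 14 held exactly 4 UMIs of the marker genes, and 57 and 13 others held exactly 3 and met every other limit. A single UMI of the cycle genes was present in 386 and 83 selected nuclei, and 125 and 36 others missed the rule with exactly 2. For Ptprc and Pdgfra, 306 and 43 selected nuclei held a single UMI and 100 and 9 others held 2. A fibre share of 0.5% to under 1% was found in 340 and 113 selected nuclei, and a share of 1% to under 1.5% kept out 91 and 79. The mitochondrial limit kept out 310 and 131 nuclei that met the rest of the rule.

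The label of satellite cell held against markers. Besides the rule's own genes, Notch3 was detected in 91.0% (89.3 to 92.4) and 89.8% (85.3 to 93.3) of the selected nuclei, against 8.82% and 8.64% of leukocyte nuclei (3 or more UMIs of Ptprc, none of Pax7 or Pdgfra and at most 1 of the cycle genes), whose median depth was 3063 and 3527.5 UMIs. With every nucleus thinned to 2000 UMIs, Notch3 was found in 82.2% and 78.4% of the selected nuclei and in 4.97% and 4.10% of leukocytes. Bmp6, a growth factor of the bone morphogenetic protein family, was detected in 37.5% and 30.2% of the selected nuclei, against 1.72% and 0.864% of leukocytes. Thinned, Bmp6 was in 31.8% and 24.1% of the selected nuclei and in 1.09% and 0.216% of leukocytes.

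Droplets also take up free RNA from broken cells, which was estimated from barcodes of 200 to under 500 UMIs. Its amount was set from 13 macrophage genes on the assumption that satellite cells make none of their transcripts, at 16.6% and 22.4% of the UMIs of the selected nuclei, with single genes between 14.5% and 43.1% and between 14.9% and 42.3%. A share of a level given by free RNA can therefore exceed 100% and carries that uncertainty. The 14 macrophage markers summed to 2780 and 606.2 CPM, against 14380 and 10610 CPM in leukocytes. Since they set the estimate, it does not test whether they are background.

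Lymphoid, granulocyte and endothelial markers were near 0. The 9 lymphoid and granulocyte markers summed to 9.06 and 10.6 CPM, with 2 and 8 of them at 0 UMIs, and the 9 endothelial markers to 78.3 and 65.3 CPM with none at 0. The 6 erythroid markers summed to 216.1 and 214.4 CPM with 0 and 1 at 0 UMIs.

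Other lists stood higher. The 9 mural markers summed to 1186 and 1057 CPM with 1 at 0 UMIs in each library, and Notch3 is the largest entry. The 8 Schwann and neural markers summed to 2192 and 1789 CPM, led by the adhesion molecule Ncam1, and the 9 adipocyte markers to 1436 and 1108 CPM, led by the growth hormone receptor Ghr, each with 0 and 3 at 0 UMIs. The 10 fibroblast markers, led by collagen genes, summed to 2103 and 1817 CPM with 0 and 1 at 0 UMIs, and free RNA gives 34.3% and 15.4% of that. The 14 adult fibre markers, led by Ttn, summed to 5358 and 5722 CPM with none at 0, and free RNA gives 56.4% and 41.0%. The part of these transcripts in the comparisons between libraries was not tested.

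Genes of the Notch pathway stood at similar levels in both libraries under the rule. Among its receptors, Notch3 was at 1020 (993.4 to 1048) and 974.2 CPM (917.6 to 1033), Notch2 at 298.4 and 340.6 CPM, and Notch1 at 150.6 and 199.4 CPM. Rbpj, the DNA-binding partner of the cleaved receptor, was at 195.2 and 175.6 CPM. Among the genes this complex switches on, Heyl was at 218.4 and 214.4 CPM, Hes1 at 120.2 and 119.1 CPM, and Hey1 at 11.7 and 7.06 CPM.

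The log2 ratio of the library labelled AHRmKO over the other was -0.03 (-0.23 to 0.17) for Heyl and -0.01 (-0.29 to 0.26) for Hes1, so neither differed beyond counting error under the rule. With no fibre limit the ratios were -0.42 for Heyl, -0.41 for Hes1 and -0.46 for Notch3. At that setting Rbpj went the other way, from -0.15 under the rule to 0.36, while Notch1 was at 0.20, Notch2 at 0.01 and the median of the Notch list at -0.01. All such ratios were taken after adding 0.5 CPM to each level, which shrinks those of low genes. Of the 27 genes of the Notch list, 24 had at least 10 UMIs over both libraries, with a median log2 ratio of 0.14 (0.17 with genes at 0 UMIs set to the floor), against -0.06 over the 14987 genes with as many. None of the 19 genes of this list with at least 30 UMIs in the library where they were higher was 2-fold apart. The background for such calls is 10375 genes, of which 4.08% were at least 2-fold higher and 18.2% at least 2-fold lower in the library labelled AHRmKO. The same background applies to every count of 2-fold list genes between libraries given below. The ligands Jag1 and Dll1 were slightly higher in that library, at 25.5 and 42.4 CPM and at 25.1 and 39.7 CPM.

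Receptors for growth factors were also close. Met, the receptor of hepatocyte growth factor, which wakes satellite cells, was at 504.4 and 573.6 CPM. Fgfr1 was at 307.3 and 292.1 CPM and Igf1r at 654.1 and 585.1 CPM. Spry1, an inhibitor of growth factor signalling that marks resting satellite cells, was at 47.8 and 53.8 CPM, and Myf5, the myogenic factor of quiescent and early activated cells, at 62.7 and 58.2 CPM. At the mitochondrial limit of 1% their ratios, 0.17 and -0.10 under the rule, were -0.45 and -1.39. Of the 21 genes of the receptor list with at least 30 UMIs in the higher library, 0 were 2-fold higher and 1 was 2-fold lower, which was Fgfr2.

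Fgfr2 stood at 404.5 and 75.0 CPM, with a ratio between libraries, in log2, of -2.42 (-2.76 to -2.12). This difference was not limited to satellite cells: the ratio of Fgfr2 was -2.33 in cycling Pax7 nuclei, -2.99 in myocytes and -2.51 in leukocytes, and leukocytes of the library labelled AHRfl/fl held it at 381.3 CPM. Fgfr2 overlaps Zranb1 on the opposite strand in GENCODE M21 (GRCm38). The sources used here do not say if reads were counted by strand, so reads of such pairs cannot be told apart.

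Cycling Pax7 nuclei, which met the rest of the rule but held 3 or more UMIs of the cycle genes, numbered 726 and 379. Compared with them, 293 of 12147 genes (2.41%) were at least 2-fold higher and 578 (4.76%) at least 2-fold lower in the non-cycling nuclei of the AHRfl/fl library. In the AHRmKO library 334 of 8511 genes (3.92%) were at least 2-fold higher and 678 (7.97%) at least 2-fold lower. Rule genes are left out of the genes named here, but the classes were divided by cycle genes, so lower mitosis genes describe that division.

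All 25 genes of the mitosis list were at least 2-fold lower in the non-cycling nuclei of both libraries, with medians of -3.80 and -4.36. Of the DNA replication list, 17 of 29 and 20 of 28 genes were 2-fold lower and none was 2-fold higher. The lowest named genes act in cell division, among them Kif14 (2.83 against 156.0 CPM, and 1.76 against 190.1 CPM), Kif18b, Ttk, Ska1 and Cep55.

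The genes named as highest in the non-cycling nuclei were ranked by the smaller of their log2 ratios in both libraries, with the same sign required. A shared direction in both libraries is therefore set by that choice. Chodl, a membrane lectin found in quiescent satellite cells, was at 59.3 CPM in non-cycling and 6.73 CPM in cycling nuclei of the AHRfl/fl library, and at 66.2 and 5.81 CPM in the AHRmKO library. The log2 ratio was 3.05 (2.57 to 3.76) and 3.40 (2.70 to 4.42), ahead of the other 9 genes named in this comparison.

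Plagl1, an imprinted zinc finger gene linked to growth arrest, was at 115.0 against 30.7 CPM and 113.0 against 30.2 CPM. Ano5, a membrane protein whose loss causes limb-girdle muscular dystrophy, was at 642.2 against 244.8 CPM and 648.6 against 218.7 CPM. Csmd1 was at 450.4 against 164.8 CPM and 451.8 against 100.3 CPM. Rnf180, Itih5, Rcan2, Kdm5b, Pnrc1 and Htra3 complete the 10 named genes, with ratios between 1.37 and 2.44. Kdm5b is a histone H3 demethylase, and Rcan2 an inhibitor of calcineurin.

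Notch and quiescence genes differed less. Heyl was 0.70 (0.55 to 0.85) and 0.83 (0.59 to 1.08) higher on the log2 scale in non-cycling nuclei, and Bmp6 1.22 (1.10 to 1.36) and 1.37 (1.13 to 1.62) higher. Notch3 was 0.22 and 0.35 higher. Of the quiescence list, 1 of 20 and 4 of 19 genes were 2-fold higher than in cycling nuclei, and none was 2-fold lower. The Notch list had 1 of 21 and 0 of 19 genes 2-fold higher and none 2-fold lower. Over all tested genes, 2.41% and 3.92% were 2-fold higher than in cycling nuclei, and 4.76% and 7.97% were 2-fold lower.

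Myocyte nuclei held no Pax7, 3 or more UMIs of Myog, Mymk and Mymx and no excess of the cycle genes or of Ptprc and Pdgfra, with no limit on fibre genes, and numbered 1245 and 311. Against them 2621 of 12834 genes (20.4%) were at least 2-fold higher and 1259 (9.81%) at least 2-fold lower in non-cycling satellite cells of the AHRfl/fl library. In the AHRmKO library these were 1921 of 7803 genes (24.6%) and 982 (12.6%). Bmp6 led the higher genes at 367.3 against 5.69 CPM and 264.7 against 3.34 CPM, with Heyl at 218.4 against 6.998 CPM and 214.4 against 3.34 CPM. Of the DNA replication list, 21 of 28 and 11 of 14 genes were 2-fold higher than in myocytes and none was 2-fold lower. That list summed to 762.2 and 1091 CPM in the selected nuclei, 329.5 and 321.9 CPM in myocytes, and 2332 and 2699 CPM in cycling Pax7 nuclei.

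Thsd4, Vipr2, Hunk, Adamts15 and Lgr5, a receptor that amplifies Wnt signalling in stem cells of several tissues, were also among the 10 highest. Lgr5 was at 146.9 against 4.23 CPM and 164.1 against 3.34 CPM. The lowest named genes were sarcomere and muscle genes, among them Myom3 of the M-band (11.9 against 462.0 CPM, and 3.53 against 469.5 CPM), Myoz2 of the Z-disc, and the muscle protease Capn3. Fibre genes were limited in the selected nuclei only, and myocytes were chosen by Myog, Mymk and Mymx without Pax7. Lower muscle genes and higher satellite cell genes therefore describe that division in part. Pkhd1, a large receptor-like protein best known from kidney, was at 29.1 against 1243 CPM and 27.4 against 1687 CPM.

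**Figure D2:**
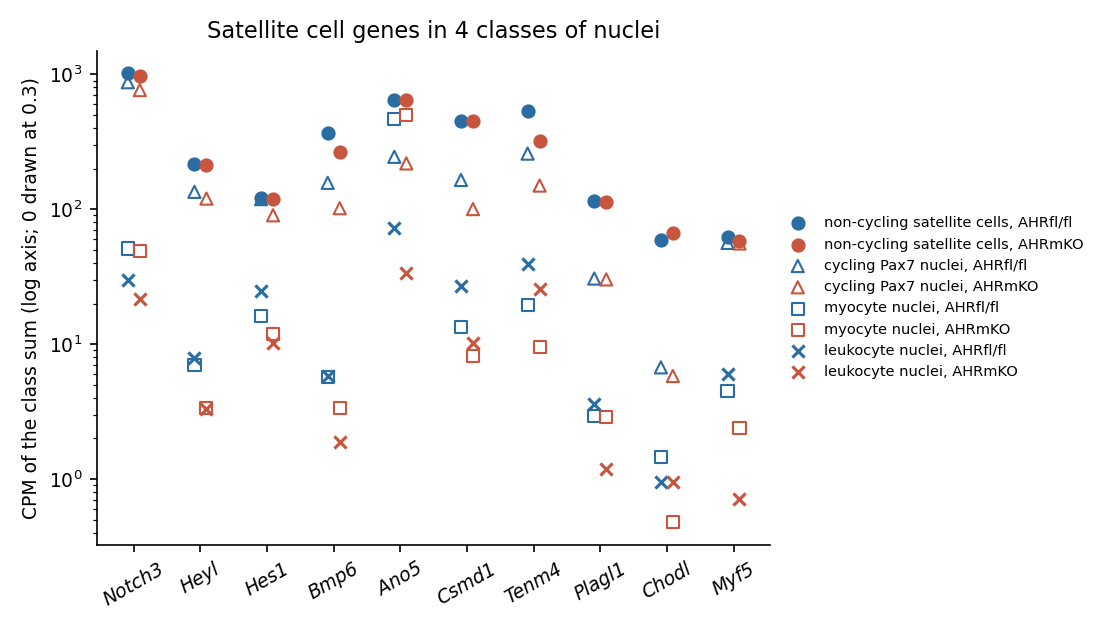
Level of 10 genes in CPM on a log axis in 4 classes of nuclei, blue for AHRfl/fl and red for AHRmKO; each point is the sum over the nuclei of 1 class and library. Chodl, Plagl1, Csmd1 and Bmp6 are highest in non-cycling satellite cells in both libraries, while Notch3, Hes1 and Myf5 are nearly as high in cycling Pax7 nuclei.

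Between libraries, 423 of 10375 genes were at least 2-fold higher and 1885 at least 2-fold lower in non-cycling satellite cells of the library labelled AHRmKO. The minimum of 30 UMIs in the higher library admits low genes mostly through the library with more UMIs. With a minimum of 50 CPM added after the data had been seen, 245 of 5139 genes (4.77%) were higher and 454 (8.83%) lower. Of those 454 lower genes, 387 were also at least 2-fold lower in free RNA, and of the 245 higher genes 51 were also at least 2-fold higher there. Over all 5139 genes, 886 were at least 2-fold lower and 813 at least 2-fold higher in free RNA.

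The very lowest genes mostly lay across from another gene. Of the 253 genes at least 16-fold lower, 214 (84.6%) overlap a gene of higher level on the other strand, against 1489 (14.4%) of all 10375 and 21 (4.96%) of the 423 higher genes. Whether both libraries were counted with the same strand and intron settings is not given in the sources used here, so a difference in counting and a difference in RNA cannot be told apart for these genes. Without the genes that have such a partner, 1066 genes were at least 2-fold lower. Of the 10 lowest named genes, 6 have such a partner and are uncertain for this reason: Egfros across from Egfr, Lrrc4 from Snd1, Pard3bos1 from Pard3b, Insyn2a from Dock1, Angptl1 from Ralgps2 and Rsf1os1 from Rsf1.

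Egfros had 1101 and 0 UMIs, at least 78.5-fold lower against the floor of 3 UMIs in the library, while Egfr itself was at 1128 and 1002 CPM. Lrrc4 was at 314.3 and 5.29 CPM (log2 ratio -5.76, -7.34 to -4.77). Pard3bos1 and Insyn2a had 1 UMI in the library labelled AHRmKO, Angptl1 had 2 and Rsf1os1 had 3, with ratios between -5.52 and -4.72 whose intervals together run from -11.46 to -3.35. C1qa and C1qc, complement genes of macrophages, and Mylpf, a fast myosin light chain, stood below the level that free RNA gives in both libraries. Taf7l, a germ cell factor of transcription initiation, had 389 and 0 UMIs, at least 27.7-fold lower, with no such partner and an expected free RNA level of 0.434 and 0.0658 CPM.

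**Figure D3:**
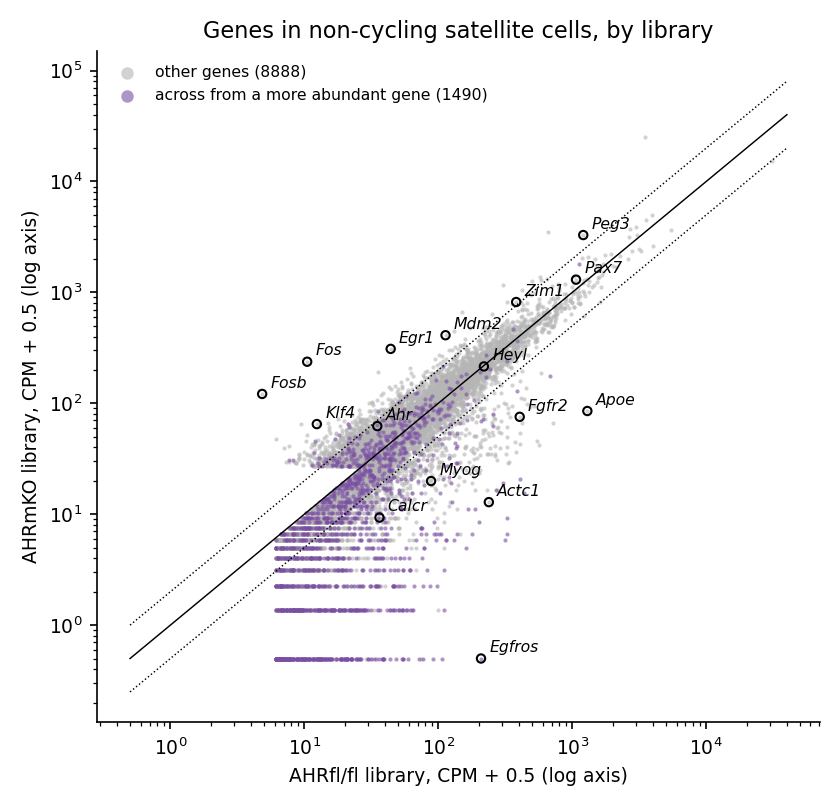
Level of each gene in non-cycling satellite cells in CPM with 0.5 added, the library labelled AHRfl/fl across and the library labelled AHRmKO up, both on log axes; the solid line marks equal levels, the dotted lines 2-fold, and purple points the genes across from a more abundant gene. The rule's own genes are drawn too. Fos, Fosb, Klf4 and Egr1 lie above the lines, Pax7 and Heyl near equality, and most of the lowest points are purple.

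Early response genes led the genes higher in the library labelled AHRmKO. Fos, a subunit of the AP-1 transcription factor that cells make within minutes of a stimulus (ENSMUSG00000021250, chromosome 12, 85473890 to 85477273, plus strand, GRCm38), was at 10.0 (7.49 to 13.1) and 236.5 CPM (209.0 to 266.6). Its relative Fosb was at 4.34 and 120.9 CPM. Egr1, a zinc finger factor of the same response, was at 43.6 and 308.9 CPM. The log2 ratios were 4.50 (4.13 to 5.02), 4.65 (4.16 to 5.5) and 2.81 (2.58 to 3.07). In free RNA the ratios of the same genes were 2.22, 3.26 and 0.70, and the AHRmKO levels expected from free RNA are 35.5, 14.8 and 21.9 CPM.

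Klf4, at 11.9 and 64.4 CPM, and Plk2, a polo-like kinase, at 14.5 and 66.2 CPM, were also among the 10 highest named genes. The centrosomal gene Lrrc45 was at 12.7 and 64.4 CPM, Slx4, a scaffold for DNA repair nucleases, at 10.0 and 51.2 CPM, and the unconventional myosin Myo3a at 8.87 and 64.4 CPM. The calmodulin kinase Camk1d was at 652.9 and 3466 CPM and the mitochondrial leucyl-tRNA synthetase Lars2 at 148.6 and 664.5 CPM. Free RNA gives more than the observed level of both in the library labelled AHRmKO, with 7084 and 847.7 CPM expected. At the mitochondrial limit of 1% the ratios of Lrrc45, Slx4, Camk1d and Lars2 lay between 1.16 and 1.46.

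Of the 30 genes of the early response list, 27 had at least 10 UMIs over both libraries, with a median log2 ratio of 0.90, while the same genes had a median of -0.35 in free RNA. Of the 15 with at least 30 UMIs in the higher library, 9 were at least 2-fold higher and 1, Ier5, was at least 2-fold lower. The background shares for these calls are the 4.08% and 18.2% given above. The minimum of 30 UMIs has to be met in the library where a gene is higher. It admits Fosb, with 23 and 137 UMIs, and leaves out Jund (97 and 25) and Fosl2 (107 and 26), which differed little. The 9 of 15 is therefore not a share of the whole list. Among the others, Junb was at 29.3 and 71.5 CPM and Socs3, a brake on cytokine signalling, at 6.80 and 29.1 CPM. Jun was level, at 87.4 and 92.7 CPM.

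A UMI of Fos was present in 3.42% (2.53 to 4.53) and 34.7% (28.7 to 41.0) of the selected nuclei, while free RNA alone would give 2.12% and 14.7%. Thinned to 2000 UMIs the shares were 1.75% and 24.9%. Leukocytes had Fos in 7.49% and 52.4% of nuclei at their own depth and in 4.44% and 40.0% when thinned. Fos was at 24.1 and 288.7 CPM in leukocytes, 5.73 and 188.2 CPM in cycling Pax7 nuclei and 5.83 and 81.7 CPM in myocytes, so the difference was not limited to satellite cells.

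Egr1 was low in leukocytes, at 10.5 and 25.3 CPM and in 3.71% and 7.02% of them, against 11.3% and 39.2% of the selected nuclei. It was in 14.2% and 39.8% of cycling Pax7 nuclei, at 38.6 and 216.0 CPM, and in 7.79% and 15.1% of myocytes, at 20.1 and 77.9 CPM. Thinned, Egr1 was in 7.5% and 31.8% of the selected nuclei, 7.44% and 27.7% of cycling Pax7 nuclei, 3.21% and 10.9% of myocytes and 2.38% and 4.86% of leukocytes. Mitochondrial content moved with this result: among nuclei with at most 1% mitochondrial UMIs, of which 604 and 27 were left, the ratio of Fos was 2.48 and that of Egr1 1.14, while that of Fosb was 4.66. Its part in the result was not tested.

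The 250 bases before the start of 4 of these higher genes are shown as the region next to the start, and the sequences are those of RefSeq on GRCm38.p6. Elements that control a gene can also lie outside this window. Egr1, Myo3a, Lrrc45, Slx4, Camk1d and Lars2 are not among the 4, and Plk2 is not on the early response list. The 4 therefore do not stand for the higher genes as a whole. Capitals mark the letters TGACG or, on the other strand, CGTCA, the core of the cAMP response element, whose full form TGACGTCA contains both and overlaps them. The windows are chr12:85473640-85473889, plus strand for Fos, chr7:19310046-19310295, minus strand for Fosb, chr4:55532476-55532725, minus strand for Klf4, and chr13:110394794-110395043, plus strand for Plk2, each written 5′ to 3′ on the strand of the gene.
Fos: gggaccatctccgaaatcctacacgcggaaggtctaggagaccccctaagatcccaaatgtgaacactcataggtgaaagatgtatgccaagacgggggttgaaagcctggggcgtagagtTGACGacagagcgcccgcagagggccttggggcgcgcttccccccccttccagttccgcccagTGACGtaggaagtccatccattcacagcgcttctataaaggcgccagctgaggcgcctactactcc
Fosb: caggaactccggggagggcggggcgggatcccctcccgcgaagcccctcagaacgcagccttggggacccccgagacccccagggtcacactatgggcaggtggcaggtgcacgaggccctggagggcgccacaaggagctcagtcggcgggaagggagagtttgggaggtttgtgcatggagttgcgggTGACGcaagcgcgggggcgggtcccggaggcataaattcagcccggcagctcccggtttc
Klf4: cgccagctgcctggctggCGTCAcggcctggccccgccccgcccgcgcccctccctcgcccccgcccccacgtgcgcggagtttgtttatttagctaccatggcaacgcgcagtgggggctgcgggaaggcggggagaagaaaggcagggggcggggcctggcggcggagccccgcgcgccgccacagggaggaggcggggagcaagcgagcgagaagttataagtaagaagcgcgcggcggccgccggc
Plk2: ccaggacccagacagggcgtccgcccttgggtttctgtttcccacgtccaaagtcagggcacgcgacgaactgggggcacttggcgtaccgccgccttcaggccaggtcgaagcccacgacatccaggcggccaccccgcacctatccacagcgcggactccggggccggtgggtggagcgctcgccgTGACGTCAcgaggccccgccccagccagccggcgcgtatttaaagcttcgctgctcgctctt

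The core lies 66 bases before the start of Fos, 60 before that of Fosb, 59 before that of Plk2 and 232 before that of Klf4, counted to the first letter of the nearest match. Fos holds it 2 times, and Plk2 holds the full form once. Of the early response list, 24 genes are in the table, and 15 of them have TGACG or CGTCA in at least 1 window, against 5347 of all 27025 genes (19.8%) and 7 of the 20 Notch list genes in the table. A different core, GCGTG or CACGC, was also above its share over all genes. It was in 13 of the 24 and 13 of the 20, against 30.9%, so such an excess is not particular to TGACG. The full form was found in 3 of the 24 and in 1.77% of all genes. Such matches describe letters in these windows and show no binding.

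Peg3 and its neighbour Zim1 were higher in the library labelled AHRmKO in myogenic nuclei. Peg3, an imprinted zinc finger gene expressed from the paternal allele (ENSMUSG00000002265, chromosome 7, 6703892 to 6730431, minus strand, GRCm38), was at 1207 (1177 to 1237) and 3286 CPM (3181 to 3393), a log2 ratio of 1.44 (1.39 to 1.5), and was chosen for description after its values were seen, as were Zim1, Usp29 and Mdm2. Zim1, also an imprinted zinc finger gene (chromosome 7, 6671269 to 6696450, minus strand), was at 380.7 and 818.0 CPM, a ratio of 1.10 (0.99 to 1.22). Usp29, which starts close to Peg3 on the opposite strand, went the other way, at 202.7 and 133.2 CPM (-0.60, -0.86 to -0.36).

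The same order held in the other myogenic classes. Peg3 was at 952.9 and 1882 CPM in cycling Pax7 nuclei and at 475.3 and 994.9 CPM in myocytes, while leukocytes held 129.5 and 96.6 CPM. Zim1 had ratios of 0.70 in cycling nuclei, 0.93 in myocytes and -0.30 in leukocytes. Free RNA gives 5.58% and 2.399% of the Peg3 level. A UMI of Peg3 was present in 93.7% and 97.1% of the selected nuclei (84.6% and 95.1% thinned) and in 27.3% and 19.5% of leukocytes (17.8% and 11.8% thinned). At the mitochondrial limit of 1% the ratio of Peg3 was 0.88, that of Zim1 0.48 and that of Usp29 -1.42.

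The window before the start of Peg3 (chr7:6730420-6730669, minus strand) is counted from the start in RefSeq, which lies inside the gene as GENCODE M21 draws it, and is shown because it also holds the full form TGACGTCA, in capitals, whose nearer core match begins 175 bases before that start.
Peg3: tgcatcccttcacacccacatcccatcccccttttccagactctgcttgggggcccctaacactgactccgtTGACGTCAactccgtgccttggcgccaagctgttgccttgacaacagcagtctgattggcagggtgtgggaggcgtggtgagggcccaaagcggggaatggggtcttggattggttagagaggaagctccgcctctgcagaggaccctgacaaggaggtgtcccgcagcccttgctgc

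The other imprinted genes did not share one direction. Of the imprinted list, 16 of 18 genes had at least 10 UMIs, with a median of -0.18. Of all 10375 tested genes, 4.08% were 2-fold higher and 18.2% lower. Of the 15 imprinted genes with at least 30 UMIs in the higher library, 2 were 2-fold higher, Peg3 and Zim1, and 3 were 2-fold lower. Those 3 were Igf2r (685.6 and 174.7 CPM), the growth factor Igf2 (50.4 and 7.06 CPM) and Nnat (85 UMIs and 1 UMI, log2 ratio -3.58 with an interval of -9.50 to -1.67). Igf2r lies across from Airn, at 1955 and 2202 CPM, and is uncertain for that reason. Meg3 was at 196.5 and 208.3 CPM, with a ratio of 0.08 that was -1.58 at the mitochondrial limit of 1%. H19 was at 204.4 and 188.0 CPM, with a ratio of -0.12 that was -0.82 at that limit and 0.70 with no fibre limit.

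Mdm2, the ubiquitin ligase that restrains p53, was at 112.7 and 410.3 CPM, with a ratio between libraries, in log2, of 1.86 (1.69 to 2.04) and of 1.08 at the mitochondrial limit of 1%. It was present in 31.5% and 57.6% of the selected nuclei (18.6% and 35.1% thinned). Leukocytes had it in 34.7% and 57.0% of nuclei (21.4% and 38.3% thinned), at 129.2 and 257.5 CPM. Among p53 targets, Cdkn1a was at 92.1 and 61.8 CPM, with a ratio of -0.57 that turned to 1.10 with free RNA subtracted. Bbc3 was at 8.68 and 21.2 CPM and Aen at 21.7 and 45.9 CPM. The p53 and stress list had 19 genes with at least 10 UMIs and a median of 0.24, and of 17 with at least 30 UMIs in the higher library 3 were 2-fold higher, Mdm2, Plk2 and Aen, and 1 was 2-fold lower, Gdf15 with 35 and 0 UMIs. Over all tested genes the shares are 4.08% higher and 18.2% lower.

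Under the rule, the medians of the commitment and differentiation lists were lower in the library labelled AHRmKO, and so were their medians in free RNA. Some genes of these lists were not lower, among them Nfix with a log2 ratio of 0.92, Jam3 with 0.38 and Mtor with 0.35. Myog, the factor that commits myoblasts to differentiate, was at 87.8 and 19.4 CPM, with a ratio between libraries, in log2, of -2.15 (-2.87 to -1.56). Free RNA held Myog at 549.0 and 80.3 CPM and gives 103.6% and 92.7% of the level in the selected nuclei. Myod1 was at 58.9 and 9.71 CPM, a ratio of -2.54 (-3.62 to -1.74), and free RNA gives 79.8% and 94.98% of those levels. With the fibre limit at 3% the ratio of Myod1 was -0.99, and with no limit -0.02. Myog stayed lower at those settings, at -1.29 and -0.90, and was at -0.63 with the mitochondrial limit of 1%.

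Shares of nuclei gave the same picture. A UMI of Myog was present in 28.0% (25.7 to 30.5) and 5.71% (3.16 to 9.40) of the selected nuclei, against 29.6% and 5.62% of leukocytes, which do not make Myog. Thinned, it was in 15.6% and 2.04% of the selected nuclei and in 18.5% and 2.70% of leukocytes. Free RNA alone would give 29.0% and 7.87%. Myod1 was in 19.7% and 4.08% of the selected nuclei (11.0% and 0.816% thinned) and in 17.7% and 4.64% of leukocytes (10.4% and 2.81% thinned). Free RNA alone would give Myod1 in 16.4% and 4.14%. The shares of Myog lay at or below the background in both libraries, as did that of Myod1 for AHRmKO, while the AHRfl/fl share of Myod1 (17.7 to 21.9) lay above the 16.4% expected. That expectation uses the summed free RNA rate of 16.6% for AHRfl/fl. Single macrophage genes gave 14.5% to 43.1% with a median of 21.9%, so an excess of Myod1 over background is not shown.

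The fusion gene Mymk (89.9 and 22.1 CPM), cardiac actin Actc1 (237.8 and 12.4 CPM) and embryonic myosin Myh3 (419.6 and 66.2 CPM) were in the same position, with 106.2% and 81.1%, 118.3% and 162.9%, and 115% and 144.8% of their levels expected from free RNA. Of the 19 genes of the differentiation and fusion list with at least 30 UMIs in the higher library, 0 were 2-fold higher and 10 were 2-fold lower. The list median was -1.16 in the selected nuclei and -2.57 in free RNA. With the expected free RNA subtracted, which leaves nothing of Actc1 and Myh3 in either library, it was 0.07. The activation and commitment list had a median of -0.47, -1.65 in free RNA, with 5 of 16 genes 2-fold lower and none higher. Of all 10375 tested genes, 18.2% were 2-fold lower and 4.08% higher.

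Cdkn1c, the cyclin-dependent kinase inhibitor p57, was at 175.7 and 90.9 CPM, of which free RNA gives 73.9% and 13.8%. Its ratio was -0.95 (-1.26 to -0.66), and -3.80 in free RNA. The direction turned with free RNA subtracted, to 0.87, and with no fibre limit, to 0.42.

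**Figure D4:**
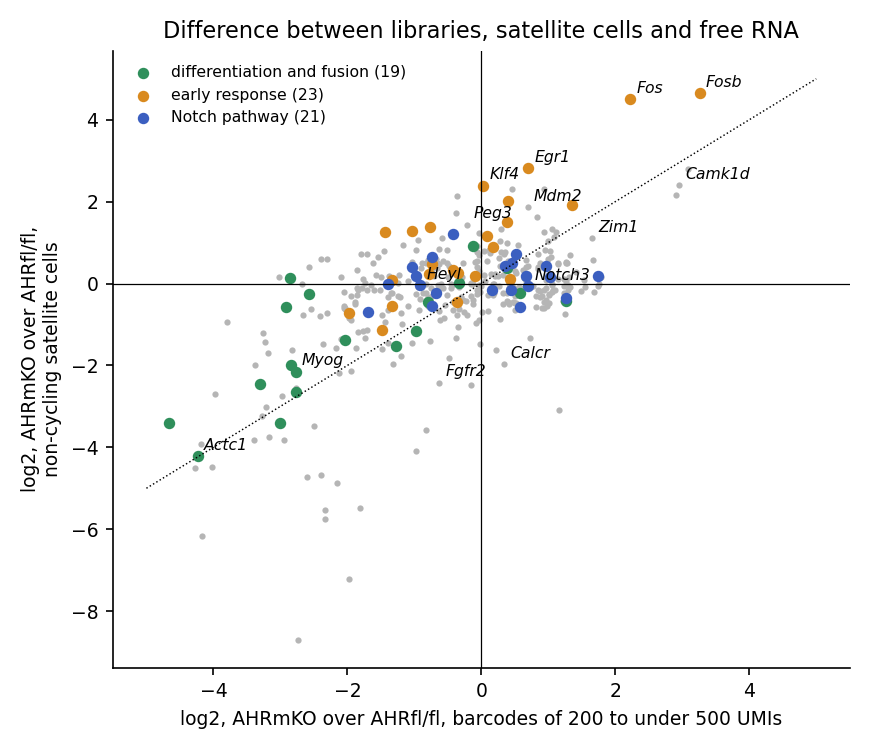
Log2 ratio between libraries of listed and named genes with at least 30 UMIs, in barcodes of 200 to under 500 UMIs (free RNA, across) and in non-cycling satellite cells (up); the dotted line marks equal ratios. Myog and Actc1 lie near the dotted line, while Fos, Egr1, Klf4, Peg3 and Mdm2 lie above it and Calcr and Fgfr2 below it.

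Genes of satellite cell identity differed one by one, and so did their levels in free RNA. Calcr, the calcitonin receptor, which keeps satellite cells quiescent, was at 35.9 (31.0 to 41.3) and 8.82 CPM (4.23 to 16.2) from 190 and 10 UMIs, a ratio of -1.96 (-3.11 to -1.11), while its ratio in free RNA was 0.34. Calcr was in 9.61% (8.11 to 11.3) and 2.45% (0.904 to 5.25) of the selected nuclei and in 0.291% and 0.216% of leukocytes. Thinned, the shares were 5.97% and 0.816%, and 0.194% and 0.216% in leukocytes. With no cycle gene UMI allowed the ratio was -3.04. Cycling Pax7 nuclei went the same way, at 21.7 and 5.42 CPM.

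Tenm4, a large adhesion receptor, was at 538.5 and 319.4 CPM (-0.75, -0.92 to -0.60), Bmp6 at 367.3 and 264.7 CPM (-0.47, -0.65 to -0.30, and -1.20 with no fibre limit) and the adhesion molecule Vcam1 at 150.6 and 83.8 CPM (-0.84, -1.17 to -0.54). In free RNA, Tenm4 and Bmp6 had ratios of 1.25 and 1.01 and Vcam1 one of -1.98, and free RNA gives at most 12.4% of the level of any of these. Chodl, Cdh15 and Itga7 were not lower, at 59.3 and 66.2, 238.4 and 260.3, and 405.5 and 488.0 CPM. Of the 19 genes of the identity list with at least 30 UMIs in the higher library, 1 was 2-fold higher, Peg3, and 3 were 2-fold lower, Calcr, Sdc3 and Cd34, a share below the 18.2% of all genes, with a list median of -0.50 and a free RNA median of -1.39. Sdc3, a heparan sulphate proteoglycan, had 138 and 7 UMIs (-1.99, -3.42 to -0.99), of which free RNA gives 85.7% and 45.2%. Cd34 had 30 and 2 UMIs (-1.44, -4.79 to 0.30).

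Collagen genes named as Notch targets in satellite cells were slightly higher, Col5a1 at 203.7 and 263.0 CPM and Col5a3 at 230.3 and 324.7 CPM. Lama2, a laminin chain of the basal lamina, was at 2603 and 1978 CPM (-0.40, -0.46 to -0.33), with a UMI in 98.3% and 96.3% of the selected nuclei (95.6% and 91.8% thinned) and in 26.4% and 27.3% of leukocytes (18.5% and 16.5% thinned). The matrix and adhesion list had a median of -0.28, with 0 of 42 genes 2-fold higher and 4 lower. The list of BMP and TGF-beta genes had a median of -0.23, with 0 of 21 higher and 3 lower, which were the receptor Bmpr1b (121 and 10 UMIs) and the BMP targets Id1 (59.3 and 26.5 CPM) and Id3 (96.8 and 41.5 CPM), whose ratios in free RNA were -1.76 and -3.26. For both lists, the shares over all 10375 tested genes are 4.08% higher and 18.2% lower.

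Ahr itself was at 34.5 (29.7 to 39.9) and 61.8 CPM (48.2 to 78.0) in non-cycling satellite cells, a log2 ratio of 0.83 (0.42 to 1.24). These cells are not the target of the deletion, so this value does not check the label. It was at 50.4 and 60.01 CPM in cycling Pax7 nuclei and 28.3 and 27.2 CPM in myocytes. With no fibre limit the ratio was 0.27, and with the cycle genes at 0 UMIs it was 0.33.

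Ahr's partner Arnt was at 181.8 and 175.6 CPM, and Tiparp, an AHR target that feeds back on the receptor, at 102.9 and 107.7 CPM. Cyp1b1, another AHR target, had 25 and 0 UMIs, at least 1.78-fold lower against the floor of 3 UMIs over the selected nuclei of the library labelled AHRmKO. Free RNA would give a UMI of Cyp1b1 in 1.31% of AHRfl/fl nuclei, and 1.75% had one. The chaperone Hsp90ab1 was at 318.3 and 97.95 CPM, with 83.3% and 40.0% expected from free RNA. The AHR list had a median of 0.00 over 15 genes, with 0 of 10 genes 2-fold higher and 1 lower, against 4.08% and 18.2% of all tested genes.

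The windows before Cyp1b1 (chr17:79715062-79715311, minus strand) and Tiparp (chr3:65528197-65528446, plus strand) are shown because both are textbook AHR targets. Capitals mark GCGTG or, on the other strand, CACGC, the core letters that AHR and ARNT bind, which 30.9% of all genes in the table, 13 of the 24 early response genes and 13 of the 20 Notch list genes hold in such a window.
Cyp1b1: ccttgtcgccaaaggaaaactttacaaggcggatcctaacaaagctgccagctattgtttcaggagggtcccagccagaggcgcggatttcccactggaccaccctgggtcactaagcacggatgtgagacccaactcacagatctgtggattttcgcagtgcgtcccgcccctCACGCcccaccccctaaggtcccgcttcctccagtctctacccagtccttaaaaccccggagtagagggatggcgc
Tiparp: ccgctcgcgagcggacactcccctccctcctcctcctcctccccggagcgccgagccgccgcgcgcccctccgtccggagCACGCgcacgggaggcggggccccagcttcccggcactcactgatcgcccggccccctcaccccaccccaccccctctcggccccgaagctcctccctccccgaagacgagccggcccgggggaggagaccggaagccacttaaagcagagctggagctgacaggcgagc

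Each window holds the core once, 76 bases before the start of Cyp1b1 and 170 before that of Tiparp. Tiparp was level between the libraries, and Cyp1b1 had no UMI in the 245 selected nuclei of the library labelled AHRmKO. It was held there by 1 of 311 myocytes and 3 of 926 leukocytes, and free RNA would give it in 0.804% of the selected nuclei.

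Of other pathways, Vegfa, an angiogenic growth factor, was at 17.9 and 45.9 CPM (1.33, 0.84 to 1.86), and its ratio in free RNA was 1.05 on levels of 19.1 and 40.1 CPM. The hypoxia list around it had a median of -0.14 (-0.76 at the mitochondrial limit of 1%), with 1 of 18 genes 2-fold higher, which was Vegfa, and 1 lower, Car9 (40 and 2 UMIs, -1.83, -5.19 to -0.15). Cell cycle entry genes had a median of -0.03, with 1 of 17 genes 2-fold higher, E2f7 (12.3 and 38.8 CPM), and 1 lower, Cdkn2a (91 and 4 UMIs). Beside both lists, 4.08% of all tested genes were 2-fold higher and 18.2% lower. Ccnd1 was at 36.2 and 24.7 CPM (-0.54, but 0.44 with a fibre limit of 3%) and Ccnd2 at 5.29 and 6.18 CPM.

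DNA replication genes had a median of 0.53, which turned to -0.49 at the mitochondrial limit of 1%, with 4 of 20 genes 2-fold higher and 2 lower. Uhrf1, which carries DNA methylation through replication, was at 10.0 and 34.4 CPM (1.73, 1.15 to 2.41). The mitosis list had a median of -0.24 (-0.88 at that limit) with 0 of 16 higher and 1 lower. The quiescence list had a median of 0.06, with 1 of 19 genes 2-fold higher, which was Fos, and 0 lower. Beside these counts, 4.08% of all tested genes were 2-fold higher and 18.2% lower.

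**Figure D5:**
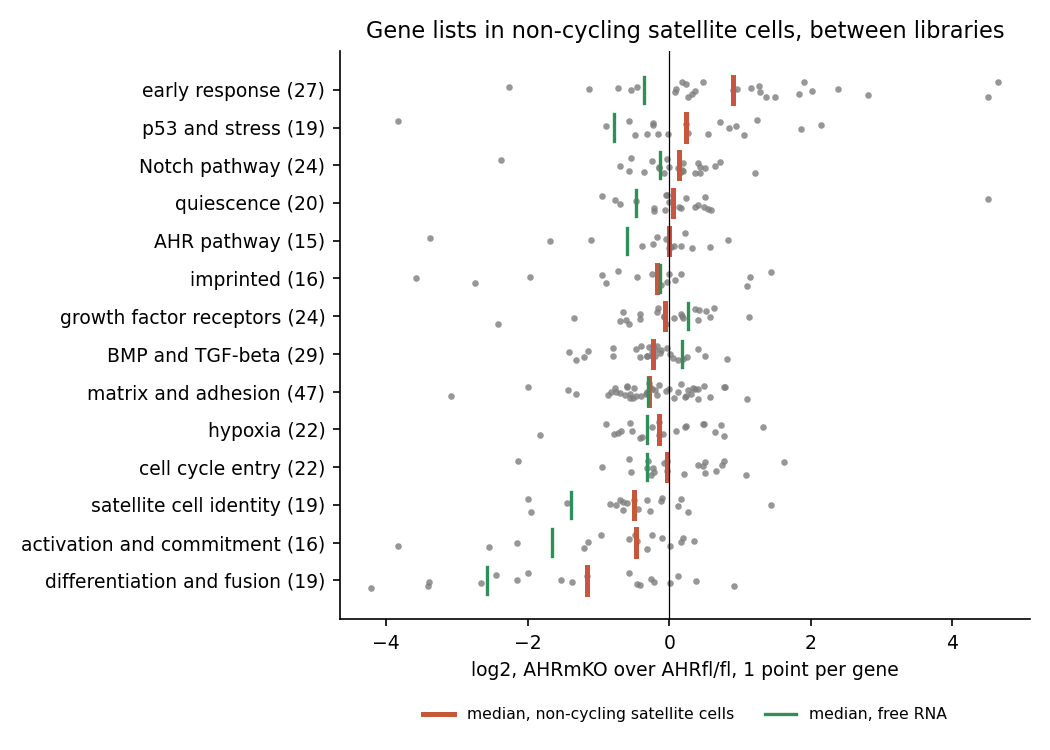
Log2 ratio between libraries for the genes of 14 lists in non-cycling satellite cells, 1 point per gene with at least 10 UMIs, with the number of genes in brackets; red bars give the list median in these nuclei and green bars the median of the same genes in free RNA. The early response median of 0.90 is the highest and the differentiation and fusion median of -1.16 the lowest, and only the latter follows a free RNA median below -2.

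The selected nuclei varied among themselves in a small set of genes. After thinning to 2000 UMIs, the variance of UMIs over nuclei divided by their mean was 1.10 for the median of 4215 AHRfl/fl genes and 1.12 for that of 4359 AHRmKO genes, where 1 is the value of pure counting noise. It was 22.9 and 12.0 for the nuclear RNA Malat1, 10.9 and 7.39 for Csmd1 and 8.09 and 4.93 for Meg3. Rora, Runx1, Cdh13, Pde4d and Dclk1 were also among the 15 highest in both libraries.

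Chodl was uneven as well, at 3.12 and 5.88 with means of 0.146 and 0.216 UMIs a nucleus, and 9.91% and 10.2% of the selected nuclei held it. It was in 0.364% and 0.432% of leukocytes, and thinned in 7.14% and 7.76% of the selected nuclei and 0.170% and 0.108% of leukocytes. The variance divided by the mean was 1.18 and 6.59 for Mdm2, with means of 0.216 and 0.641 UMIs a nucleus, and 1.83 and 4.83 for Peg3, with means of 2.56 and 7.46. By this measure Mdm2 ranked 1080 of 4215 genes and 3 of 4359, and Peg3 163 and 8. The measure depends on the mean, which was higher for both genes in the library labelled AHRmKO. The part of the mean in these values was not tested.

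The nuclei were also divided by Myog and Myod1, whose UMIs include those of free RNA. In the library labelled AHRfl/fl, Myog was in 28.0% of nuclei, and free RNA alone would give 29.0%. Nuclei with neither made up 58.7% and 91.0% (75.8% and 97.1% thinned). In the library labelled AHRfl/fl, nuclei with Myog held Actc1 at 230.9 CPM and those with neither at 244.9 CPM, and Mymk at 91.2 and 90.2 CPM. Nuclei with Myog were higher in the transcription factor Mef2c (114.2 CPM, 98.3 to 131.9) than those with neither (75.3, 65.8 to 85.9). They were also higher in the cell cycle genes Ccnd1 (46.6 against 25.0 CPM) and Cdkn1c (201.7 against 161.4 CPM), with counting intervals that do not overlap. Chodl was lower in nuclei with Myog (39.1 CPM, 30.05 to 50.03) than in those with neither (78.4, 68.6 to 89.1), as were Heyl (183.1 against 243.5 CPM) and Notch3 (895.6 against 1095 CPM). Pax7 was lower too (942.1 against 1142 CPM), but it is a gene of the rule, so its level is set in part by the selection. Intervals overlapped for Hes1 (122.9 against 112.8 CPM), Myf5 (67.65 against 63.16 CPM) and Spry1 (44.69 against 51.67 CPM). The corresponding classes of the library labelled AHRmKO held 14 and 223 nuclei. Nuclei with Myog were deeper in both libraries, with medians of 3819 against 3423 UMIs for AHRfl/fl and 5303 against 3471 for AHRmKO. The part of depth in these differences was not tested. The 182 AHRfl/fl nuclei with Myod1 and no Myog held Chodl at 26.2 CPM and Ccnd1 at 59.3 CPM. Counting intervals leave out spread among nuclei. For Chodl the variance divided by the mean was 3.12 in that library, so its intervals are too narrow.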

How the data were processed

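Single-nucleus libraries were made with the Chromium 3′ HT chemistry, per the labels' protocols. The deposited values are unnormalised UMI counts of each gene in every barcode, made with Cell Ranger 7.0.1 on mm10 per the submitters' processing notes, while the file headers of both libraries name Cell Ranger 4; whether introns and strand were used is not given in the sources used here. Counts were summed over selected nuclei per library and scaled to CPM. The members, gene lists and rules were chosen with earlier results of these data known. Log2 ratios have 0.5 CPM added; genes needed 30 UMIs in the higher library, and list medians 10 UMIs over both. Intervals are exact Poisson, Clopper-Pearson or conditional binomial at 95%. The ratio intervals were tested on simulated Poisson counts, the error they assume, so that test does not cover spread among nuclei. Named genes were a fixed set of 32 plus the 10 highest and 10 lowest ratios between libraries, and against cycling and myocyte nuclei, with at least 50 CPM, leaving out unnamed gene models, mitochondrial, haemoglobin, ribosomal and marker genes. Free RNA came from barcodes of 200 to under 500 UMIs and its amount from macrophage genes. No doublet step beyond the rule was used; Scrublet scores served an alternative. Python 3.11.15, numpy 2.4.6, scipy 1.17.1, pandas 2.3.3 and scanpy 1.11.5 were used.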

Additional observations from a re-analysis of the deposited data

Results flagged for a closer look

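Myod1 stood on opposite sides of cycling Pax7 nuclei in the 2 libraries: its log2 ratio of non-cycling over cycling nuclei was 0.37 (0.11 to 0.65) for AHRfl/fl and -1.62 (-2.73 to -0.76) for AHRmKO, with intervals on opposite sides of 0. The difference between the libraries was not tested. Its levels were 58.9 and 45.4 CPM in the first and 9.71 and 31.0 CPM in the second, and free RNA gives 79.8% and 94.98% of the level in non-cycling nuclei.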

How the results depend on the processing

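No paired analysis was possible because each group has 1 library. The share of satellite cells moved with most limits. In the library labelled AHRfl/fl it was 7.09% with a minimum of 1000 UMIs, 6.21% with a mitochondrial limit of 1%, 6.92% and 8.70% with at least 6 and 2 marker UMIs, 5.81% with no cycle gene UMI, 6.28% with no Ptprc or Pdgfra UMI, 6.08%, 9.37% and 10.1% with a fibre limit of 0.5%, of 3% and none, and 8.52% without the top doublet scores. In the library labelled AHRmKO it was 3.06%, 2.61%, 3.20% (at least 6), 2.44%, 3.05%, and 1.99%, 7.03% and 9.41% under the same settings. Genes at least 2-fold higher, 423 under the rule, numbered 84 with the mitochondrial limit of 1%. That limit left 604 AHRfl/fl and 27 AHRmKO nuclei. Fewer genes could then reach the minimum of UMIs in the library labelled AHRmKO, so the fall to 84 does not show that differences were lost. The higher genes numbered 643 and 637 with a fibre limit of 3% and none, and 723 with free RNA subtracted. They numbered 1928 without a minimum, 122 with at least 100 UMIs and 245 with at least 50 CPM. Genes at least 2-fold lower, 1885 under the rule, numbered 1943 with the mitochondrial limit of 1%. They numbered 4296 without a minimum, 957 with at least 100 UMIs and 454 with at least 50 CPM. Without genes across from a more abundant one they numbered 1066. A change of the minimum also changes which genes are tested, so these counts are not shares and cannot be compared as such. The differentiation and fusion median of -1.16 was -0.30 with the mitochondrial limit of 1%, -0.07 with no fibre limit and 0.07 with free RNA subtracted. That subtraction also turned Myog to 2.22 and Lars2 to -7.30, of whose levels free RNA gives 92.7% and 127.6% in the library labelled AHRmKO. Expected free RNA exceeds the Myog level of the library labelled AHRfl/fl and the Lars2 level of the library labelled AHRmKO. Nothing is left there, so both ratios rest on the 0.5 CPM added and are not reversals of measured levels. Of the recomputed ratios of named genes, 819 stayed within the counting interval, 161 moved beyond it and 2 turned from over 2-fold one way to the other direction; in all, 52 had the other sign, 28 of them beyond the interval, among them Cdkn1c at 0.87 and Cdkn1a at 1.10 with free RNA subtracted. Scaling by median ratio or trimmed mean lowered every ratio by 0.1 on the log2 scale. The alternatives with a fibre limit of 3% or none, with 50 CPM, and without genes across from another were chosen after seeing the data. Depth limits the library labelled AHRmKO most, where 3 UMIs correspond to 2.65 CPM.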
